A study of Papio anubis with 588 samples.

Results

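The genes described here are 9 transcription factors and repressors at the output and in the stabilising loop of the circadian clock, namely DBP, TEF, HLF, NFIL3, NR1D1, NR1D2, BHLHE40, BHLHE41 and CIART. They were found by symbol in a table of 34178 genes, by a rule that holds no measured value, although the list was drawn up with earlier results of these data known. Of the 9, 8 were found there and are described below, and BHLHE40 was not analysed here.

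The core of the circadian clock is a loop in which BMAL1 (encoded by ARNTL) and CLOCK switch on genes that carry E-box elements, among them the PER and CRY genes, whose proteins then shut that activation off. NR1D1 and NR1D2, also called REV-ERBα and REV-ERBβ, are nuclear receptors that repress ARNTL and so form a stabilising loop around the core. DBP, TEF and HLF, the PAR bZIP factors, carry the rhythm onward to genes with D-box elements, and NFIL3 (E4BP4) represses through the same elements. BHLHE41 (DEC2) is a repressor that binds E-boxes, and CIART (CHRONO) is a repressor of BMAL1 and CLOCK. In liver these factors are known for driving rhythms of lipid, bile acid and drug metabolism.

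The study sequenced RNA from biopsied liver, muscle and adipose tissue of 99 olive baboons (Papio anubis) in captivity. Each animal was sampled at 0 years on a low cholesterol, low fat diet (LCLF) and again at 2 years, after the switch to a high cholesterol, high fat diet (HCHF). Animals kept on LCLF were not analysed here, so 2 years of age and of calendar time cannot be told apart from the diet. The sources used here do not state the hour of biopsy, the time since the last meal, or the animals' age and sex. The 570 libraries comprised, for LCLF and HCHF in turn, 95 and 87 from liver, 96 and 98 from muscle, and 99 and 95 from adipose tissue. Both times were available for 84, 95 and 95 animals in these tissues.

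Total counts per library ranged from 6.51 to 38.5 M counts with a median of 19.5 M. A first library batch of 16 animals was shallower (median 10.9 M) than a second of 83 animals (median 20.1 M), and values within each batch are given below. Summed hepatocyte markers lay between 41680.4 and 269584 CPM (counts scaled to a common library total) in liver, summed myocyte markers between 91770.0 and 261841 CPM in muscle, and summed adipocyte markers between 460.1 and 27509.7 CPM in adipose tissue. By these sums, 5 animals had an adipose library low in its own markers or high in those of another tissue, and the same held for 2 animals by their liver library and 2 by their muscle library. Leaving those animals out changed the call of 1 of the 24 within-tissue diet comparisons, as given below. In bulk tissue, fewer cells of a type and less RNA per cell cannot be told apart.

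HLF and NFIL3, an activator and a repressor of D-box genes, were the members with their highest level in liver. On LCLF, the lowest, median and highest HLF levels were 57.6, 118 and 183 CPM in liver, 1.66, 18.7 and 38.6 CPM in muscle, and 7.90, 22.1 and 48.3 CPM in adipose tissue. Every liver library thus lay above every muscle and adipose library. The difference in log2 level was 2.81 ± 0.077 (SE) between liver and muscle in 92 animals (adjusted p = 3.12e-57, edgeR's quasi-likelihood test, blocked by animal and adjusted by Benjamini-Hochberg over all genes, as for all level and diet comparisons within a tissue or at 1 time). Against adipose tissue it was 2.54 ± 0.052 in 95 animals (adjusted p = 1.28e-69). NFIL3 ranged from 31.9 through a median of 82.0 to 214 CPM in liver, against medians of 13.9 CPM in muscle and 18.9 CPM in adipose tissue, and was higher in liver in 92 of 92 and 95 of 95 animals.

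All 8 genes differed in level in each of the 3 comparisons between tissues on LCLF, as did 93.5% of all genes between liver and muscle, 92.9% between liver and adipose tissue and 94.2% between adipose tissue and muscle, so a difference as such does not set these genes apart. HLF, the closest of the 8 between adipose tissue and muscle (0.161 ± 0.077, adjusted p = 0.0406), did not pass there with no animal block (adjusted p = 0.19) or by limma-voom (adjusted p = 0.0761). BHLHE41 spanned the widest range of the 8. It ranged from 14.0 through 71.3 to 193 CPM in muscle, from 8.57 through 19.6 to 59.0 CPM in adipose tissue, and from 0 through 0.680 to 2.95 CPM in liver. No liver library reached the lowest muscle or adipose library, and the 1 liver library with 0 counts allows a level of up to 0.22 CPM (3 counts in that library). The log2 difference was -6.64 ± 0.142 between liver and muscle (adjusted p = 1.31e-66) and -4.87 ± 0.131 between liver and adipose tissue (adjusted p = 3.43e-58). BHLHE41 overlaps SSPN in the RefSeq annotation, and its median count per liver library on LCLF was 9.

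TEF, NR1D2, DBP and CIART were also highest in muscle and lowest in liver. TEF medians on LCLF were 120, 77.4 and 29.9 CPM in muscle, adipose tissue and liver, within ranges of 33.3 to 278, 27.7 to 145 and 9.36 to 113 CPM. NR1D2 medians were 115, 59.4 and 36.2 CPM, and DBP medians were 43.8, 28.7 and 18.2 CPM. The ranges of these genes overlapped between tissues, yet within animals TEF was higher in muscle than in liver in all but 2 of 92, and NR1D2 in all but 1. Of these 4 genes CIART was the closest between adipose tissue and muscle, with medians of 10.5 and 12.6 CPM, a log2 difference of -0.40 ± 0.085 (adjusted p = 1.28e-05) and a higher level in adipose tissue in 31 of 96 animals.

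NR1D1 was the member whose order of tissues depended on the time. On LCLF its levels were 7.60, 34.4 and 117 CPM (lowest, median, highest) in adipose tissue, 4.92, 22.9 and 142 CPM in muscle, and 2.23, 6.05 and 69.3 CPM in liver. Adipose tissue was above muscle in 73 of 96 animals, by 0.31 ± 0.069 on the log2 scale (adjusted p = 1.74e-05). In the 2-year libraries this difference had the other sign, -0.22 (adjusted p = 0.0204), with medians of 28.0 CPM in adipose tissue and 29.3 CPM in muscle. The levels by library show this crossing for NR1D1 and the separation of liver for HLF, NFIL3 and BHLHE41.

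**Figure D1:**
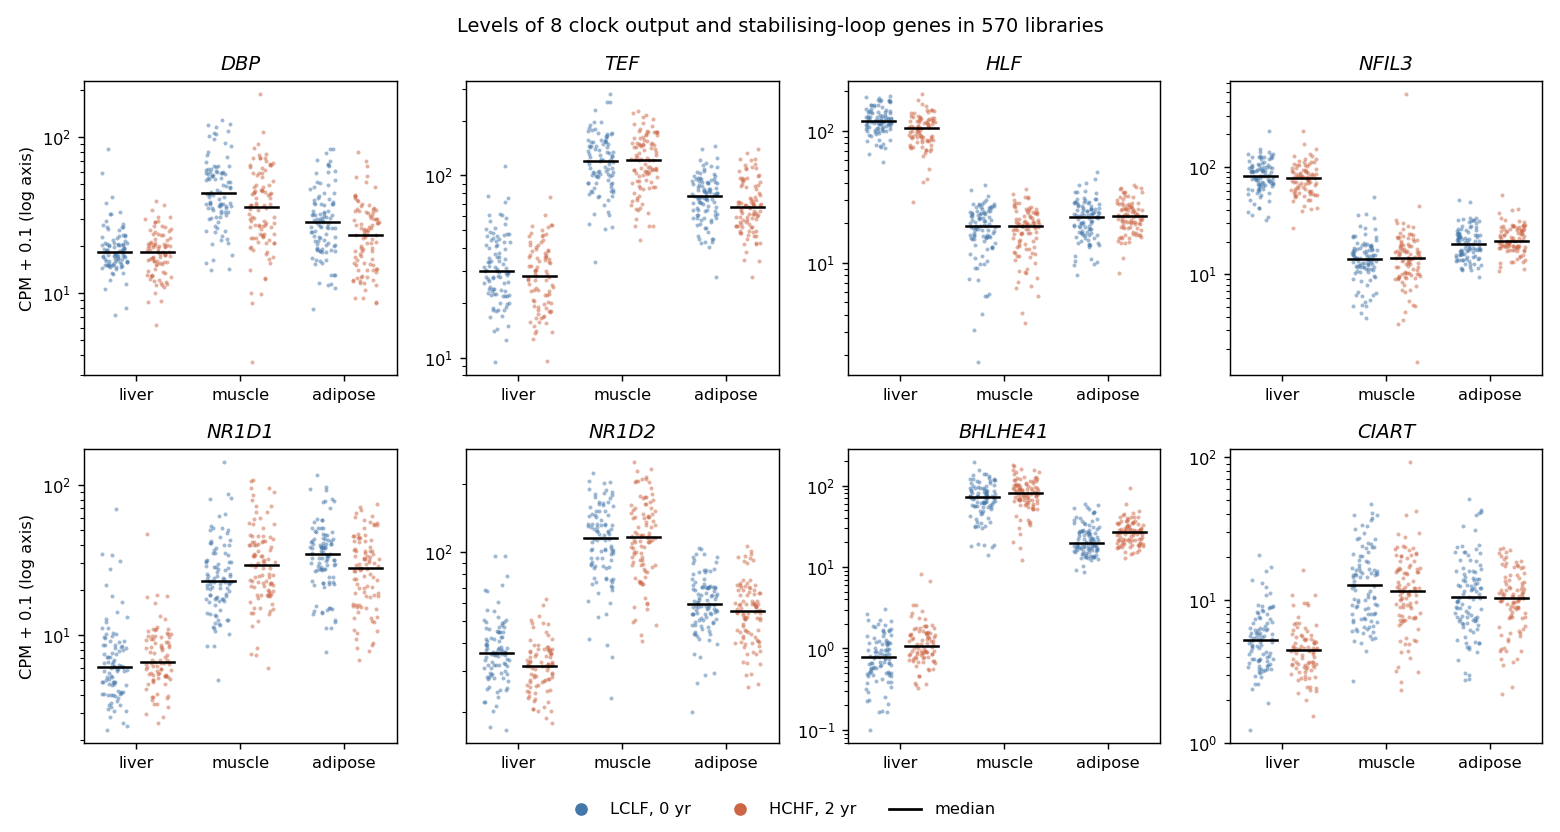
Level of each gene in CPM plus 0.1 (log axis) in the 570 libraries, by tissue and by diet and time; each point is 1 library and the black bar is the group median. HLF and NFIL3 sit highest in liver, where BHLHE41 has a median of 0.680 CPM on LCLF, and the NR1D1 medians of muscle and adipose tissue change order between LCLF and HCHF.

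With the change from LCLF to HCHF, 4 of the 8 genes passed the test in liver, and the counts for muscle and adipose tissue were 2 and 5. BHLHE41 rose in all 3 tissues, and the others that passed fell. Of all genes tested in liver 50.1% passed (22.5% higher, 27.6% lower), so that 4 of 8 was close to the background. In muscle 15.6% passed (7.39% higher, 8.24% lower) and in adipose tissue 39.2% (19.0% higher, 20.2% lower). The 8 genes had a median log2 change of -0.109 in liver (-0.03 over all genes tested), 0.007 in muscle (0.002) and -0.134 in adipose tissue (-0.005).

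In liver, HLF fell from a median of 118 CPM to 104 CPM, with 28.7 CPM the lowest and 188 CPM the highest HCHF library. The groups overlapped widely, but within animals HLF was lower on HCHF in 61 of 84, with a log2 change of -0.22 ± 0.048 (adjusted p = 5.75e-05). HLF was also the only member that passed in liver within each batch, at -0.36 in batch 1 (adjusted p = 0.00381) and -0.20 in batch 2 (adjusted p = 0.00204, limma-voom).

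The repressors moved in different directions in liver. CIART fell by 0.305 ± 0.081 on the log2 scale (adjusted p = 0.00104), with HCHF levels of 1.44, 4.37 and 16.1 CPM (lowest, median, highest) against 1.14, 5.20 and 20.6 CPM on LCLF. NR1D2 fell by 0.18 ± 0.059 (adjusted p = 0.00751), from a median of 36.2 to 31.7 CPM, and was lower in 54 of 84 animals. BHLHE41 rose by 0.58 ± 0.118 (adjusted p = 2.25e-05), from a median of 0.680 to 0.982 CPM, and was higher in 59 of 84 animals. These are low levels in liver, at 9 and 16 counts in the median library. DBP (-0.08 ± 0.058), TEF (-0.14 ± 0.083), NFIL3 (-0.04 ± 0.062) and NR1D1 (0.05 ± 0.122) did not pass in liver, with adjusted p-values of 0.262, 0.156, 0.561 and 0.742.

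In muscle, DBP was the gene with the larger change. DBP levels were 14.0, 43.8 and 130 CPM on LCLF and 3.51, 35.8 and 189 CPM on HCHF, so the HCHF libraries spread beyond the LCLF range at both ends. Within animals DBP was lower in 60 of 95, with a change of -0.38 ± 0.107 (adjusted p = 0.0104). BHLHE41 rose by 0.20 ± 0.074 (adjusted p = 0.0483), from a median of 71.3 to 81.7 CPM, and was higher in 57 of 95 animals. In batch 2 alone the BHLHE41 value was 0.21 with an adjusted p of 0.0779, and DBP kept its call at -0.36 (adjusted p = 0.0217). With no animal block neither gene passed (DBP -0.31, adjusted p = 0.0932; BHLHE41 0.18, adjusted p = 0.284). NR1D1 was higher in 55 of 95 animals, at 0.26 ± 0.106, and did not pass (adjusted p = 0.0797). TEF, HLF, NFIL3 and NR1D2 lay between -0.03 and 0.06 and CIART at -0.16 ± 0.110 in muscle, and none of these passed.

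One animal stood far from the others for several of the 8 genes, most of all in its HCHF muscle library. NFIL3 reached 471.5 CPM in this library, against a median of 14.1 CPM, and the change in that animal was 5.14 for NFIL3, 3.55 for NR1D1, -3.57 for DBP and -1.46 for HLF on the log2 scale, each the most extreme of 95 animals in its direction. The same library had the highest sum of 10 glucocorticoid-induced genes among 98 HCHF muscle libraries, 20088 CPM against a median of 1557 CPM, and the lowest sum of myocyte markers, 120324 against 275319 CPM (both after TMM scaling). Other lists were extreme there too. The sum of core clock genes was also the highest (1845 against 747 CPM) and that of adipocyte markers the lowest (421 against 2074 CPM). Hypoxia-induced genes ranked 2 of 98 (4658 against 844 CPM). In liver the same animal had the most extreme change in NR1D1, 3.94, and without it the mean change of NR1D1 in liver was 0.0259 in place of 0.0725. Without this animal the mean change in muscle was -0.03 in place of 0.02 for NFIL3, -0.36 in place of -0.39 for DBP and 0.23 in place of 0.26 for NR1D1.

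In adipose tissue 5 of the 8 genes changed, 4 of them downward. DBP, the PAR bZIP factor best known as a direct E-box target, had levels of 7.76, 28.7 and 84.6 CPM on LCLF and 8.50, 23.7 and 80.2 CPM on HCHF. Its change was -0.33 ± 0.087 (adjusted p = 0.00139), lower in 65 of 95 animals. NR1D1 changed by -0.34 ± 0.101 (adjusted p = 0.0045), from 7.60, 34.4 and 117 CPM to 6.67, 28.0 and 74.7 CPM, and was lower in 62 of 95. The related genes moved less: TEF by -0.16 ± 0.058 (adjusted p = 0.0214) and NR1D2 by -0.14 ± 0.049 (adjusted p = 0.0198), each lower in 60 of 95 animals.

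BHLHE41 rose in adipose tissue by 0.28 ± 0.069 (adjusted p = 0.000724). Its levels went from 8.57, 19.6 and 59.0 CPM to 12.7, 26.6 and 93.3 CPM, higher in 66 of 95 animals. NFIL3 (0.13 ± 0.057, adjusted p = 0.0571), HLF (0.09 ± 0.057, adjusted p = 0.227) and CIART (-0.13 ± 0.104, adjusted p = 0.325) did not pass. Without the 5 animals set apart above for their adipose libraries, NFIL3 passed at 0.14 (adjusted p = 0.0492). With no animal block TEF (adjusted p = 0.0977) and NR1D2 (adjusted p = 0.125) did not pass, and in batch 2 alone NR1D2 had -0.13 (adjusted p = 0.0575). Batch 1, with 16 animals, called none of the 8 genes in adipose tissue, and 0 of them at an unadjusted p under 0.05 (limma-voom). The plot of changes by tissue shows BHLHE41 above 0 throughout and NR1D1 on opposite sides of 0 in muscle and adipose tissue.

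**Figure D2:**
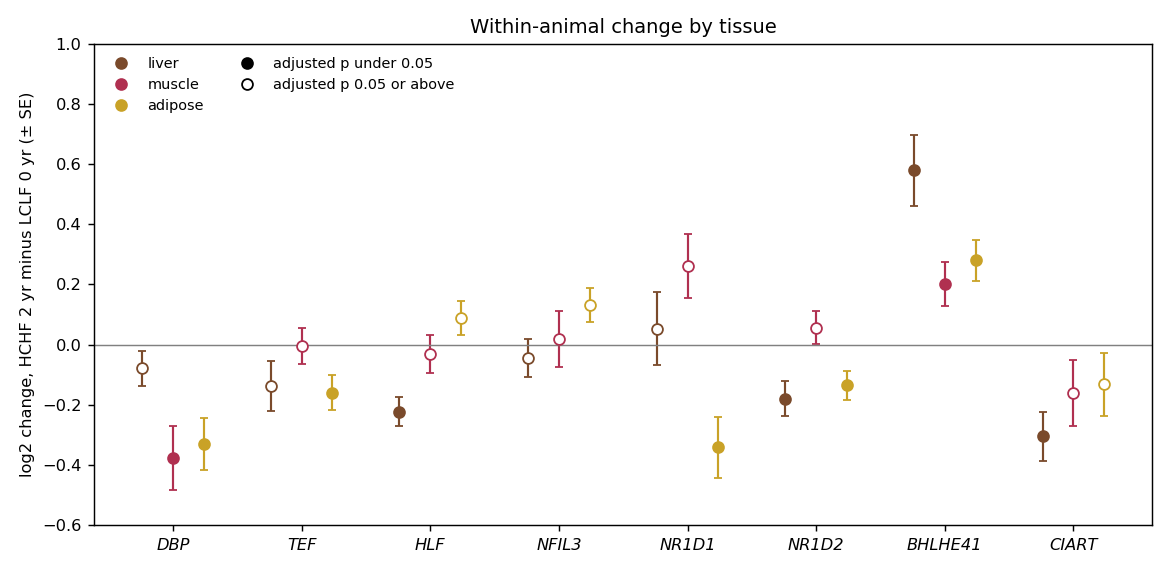
Fitted within-animal log2 change, HCHF at 2 years minus LCLF at 0 years, of each gene in liver (84 animals), muscle (95) and adipose tissue (95); bars are 1 SE and filled points have an adjusted p under 0.05. BHLHE41 is the only gene with filled points in all 3 tissues (0.58, 0.20 and 0.28), and the NR1D1 points lie at 0.05, 0.26 and -0.34.

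Markers of several cell types moved between the same libraries. In liver, 10 of 11 tested macrophage markers, 9 of 9 endothelial, 9 of 9 fibroblast, 10 of 10 T and NK cell, 4 of 4 neutrophil and 2 of 2 erythroid markers rose and 6 of 10 hepatocyte markers fell. In muscle 7 of 9 endothelial and 6 of 9 myocyte markers fell, and 5 of 9 macrophage, 4 of 6 T and NK cell and 4 of 9 fibroblast markers rose. In adipose tissue 10 of 11 macrophage, 8 of 9 fibroblast, 4 of 4 neutrophil, 5 of 6 mesothelial and 3 of 3 erythroid markers rose while 7 of 9 endothelial markers fell. With the changes in these cell type scores as covariates (limma), BHLHE41 in adipose tissue still passed, at 0.44 (adjusted p = 0.00197). The other calls did not: 0 of 8 genes passed in liver and 0 in muscle, with 1 in each at an unadjusted p under 0.05. The count over all genes in liver was 27 with these covariates and 7477 without them. It was 484 in muscle and 1079 in adipose tissue with them, and 2128 and 6594 without them. Calls thus became fewer over all genes in each tissue. The values so adjusted were -0.09 for HLF and 0.28 for BHLHE41 in liver, -0.25 for DBP in muscle, and -0.11 for DBP and -0.04 for NR1D1 in adipose tissue.

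Whether the change itself differed between tissues was tested in animals with both times in both tissues (limma on the difference of the within-animal changes, adjusted over all genes). NR1D1 differed most. Over 91 animals its mean change was -0.32 in adipose tissue and 0.26 in muscle, a difference of -0.58 ± 0.106 (adjusted p = 7.31e-05), and the change in adipose tissue was the higher in 25 of them. Between liver and adipose tissue NR1D1 differed by 0.43 ± 0.138 (adjusted p = 0.00851). Of the 8 genes, 2 differed between adipose tissue and muscle, where 12.8% of all genes did, 3 between liver and muscle (33.1%), and 3 between liver and adipose tissue (37.7%).

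The change of DBP in liver was above that in the other tissues, by 0.325 ± 0.119 against muscle (adjusted p = 0.0273) and 0.26 ± 0.083 against adipose tissue (adjusted p = 0.00897). The change of HLF was lower in liver than in adipose tissue (-0.31 ± 0.083, adjusted p = 0.00159). BHLHE41 rose more in liver than in muscle (0.44 ± 0.134, adjusted p = 0.00791). NR1D2 had a lower change than muscle both in liver (-0.18 ± 0.061, adjusted p = 0.0192) and in adipose tissue (-0.18 ± 0.061, adjusted p = 0.037). TEF, NFIL3 and CIART differed in none of the 3 comparisons. In batch 2 alone, the NR1D1 difference between adipose tissue and muscle kept its call. The DBP differences from liver (0.23, adjusted p = 0.139, and 0.19, adjusted p = 0.0724) and the NR1D1 difference between liver and adipose tissue (0.305, adjusted p = 0.0922) did not, nor did the NR1D2 difference between adipose tissue and muscle (-0.135, adjusted p = 0.219).

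Animals differed widely in how far and in which direction these genes changed, and many pairs of the 8 genes changed together, in adipose tissue all of them. In adipose tissue all 28 pairs passed a permutation test of Pearson's r over 95 animals (adjusted over the 84 pairs of 3 tissues). The 21 pairs without NFIL3 were positive and the 7 with NFIL3 negative. In muscle 18 of 28 pairs passed, 15 positive and 3 negative, and in liver 17, 13 positive and 4 negative. By Spearman's rho 27, 19 and 13 pairs passed. An r of at least 0.3 was reached by 20, 12 and 10 of the 28 pairs in adipose tissue, muscle and liver, where 9.23%, 11.1% and 8.31% of all pairs of genes reached it. An r of -0.3 or lower was reached by 7, 2 and 1 pairs, against 8.56%, 10.3% and 7.38% of all pairs. Adipose tissue had a median size of r of 0.653, muscle of 0.297 and liver of 0.265. Whether r differed between tissues was not tested.

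DBP and NR1D1 had the highest r in adipose tissue, 0.819 (rho 0.809, adjusted p = 2.62e-05 for each, from the smallest p that 100000 permutations can give, 1e-05). It was 0.854 in the 16 animals of batch 1 and 0.823 in the 79 of batch 2, and 0.802 without the 2 animals farthest from the median. TEF followed NR1D1 nearly as closely (r = 0.813, rho 0.784). Within the PAR bZIP family, r in adipose tissue was 0.769 for DBP and TEF, 0.763 for DBP and HLF and 0.767 for TEF and HLF. These 3 activators thus moved as a block, and NFIL3, the repressor at the same element, moved against them at -0.676 with DBP, -0.581 with TEF and -0.603 with HLF.

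BHLHE41 was the loosest member in adipose tissue. Apart from its pair with NFIL3, its r was between 0.228 (NR1D2, adjusted p = 0.0358; rho 0.205, adjusted p = 0.063) and 0.551 (DBP). The first axis through the 8 standardised changes held 67.9% of their variance in adipose tissue, 41.2% in muscle and 35.4% in liver, and on each of these axes NFIL3 had the opposite sign to DBP, TEF, NR1D1, NR1D2, BHLHE41 and CIART.

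Muscle kept part of this pattern. DBP and CIART had an r of 0.783 (rho 0.764, adjusted p = 2.62e-05; 0.811 and 0.779 in batches 1 and 2), and DBP and TEF one of 0.685. NR1D2 and BHLHE41, the loosest pair in adipose tissue, reached 0.693 in muscle (0.825 and 0.681 within batches). HLF was joined less tightly to DBP (0.289) and not detectably to CIART (0.075, adjusted p = 0.505). The pairs of NFIL3 rested in part on the muscle library named above: r with DBP was -0.493 with that animal and -0.405 without it, r with TEF -0.230 and -0.144, and r with NR1D1 0.040 and -0.184. The r of DBP and NR1D1 in muscle was 0.282 with it and 0.427 without it, and -0.001 within batch 1.

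In liver HLF left the block. Its r was 0.465 with NFIL3 (rho 0.472, adjusted p = 4.67e-05; 0.352 and 0.483 within batches), 0.078 with TEF (adjusted p = 0.513) and -0.249 with DBP (adjusted p = 0.0309; rho -0.228, adjusted p = 0.051; 0.031 within batch 1). The closest pairs in liver were TEF and NR1D2 (r = 0.631, rho 0.598, adjusted p = 2.62e-05) and DBP and CIART (r = 0.541, rho 0.513, adjusted p = 2.62e-05). DBP and TEF had 0.474, and NFIL3 had -0.304 with CIART and -0.262 with DBP. After the cell type score changes were removed from each gene, 56 of the 84 pairs passed, counted without regard to which had passed before.

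**Figure D3:**
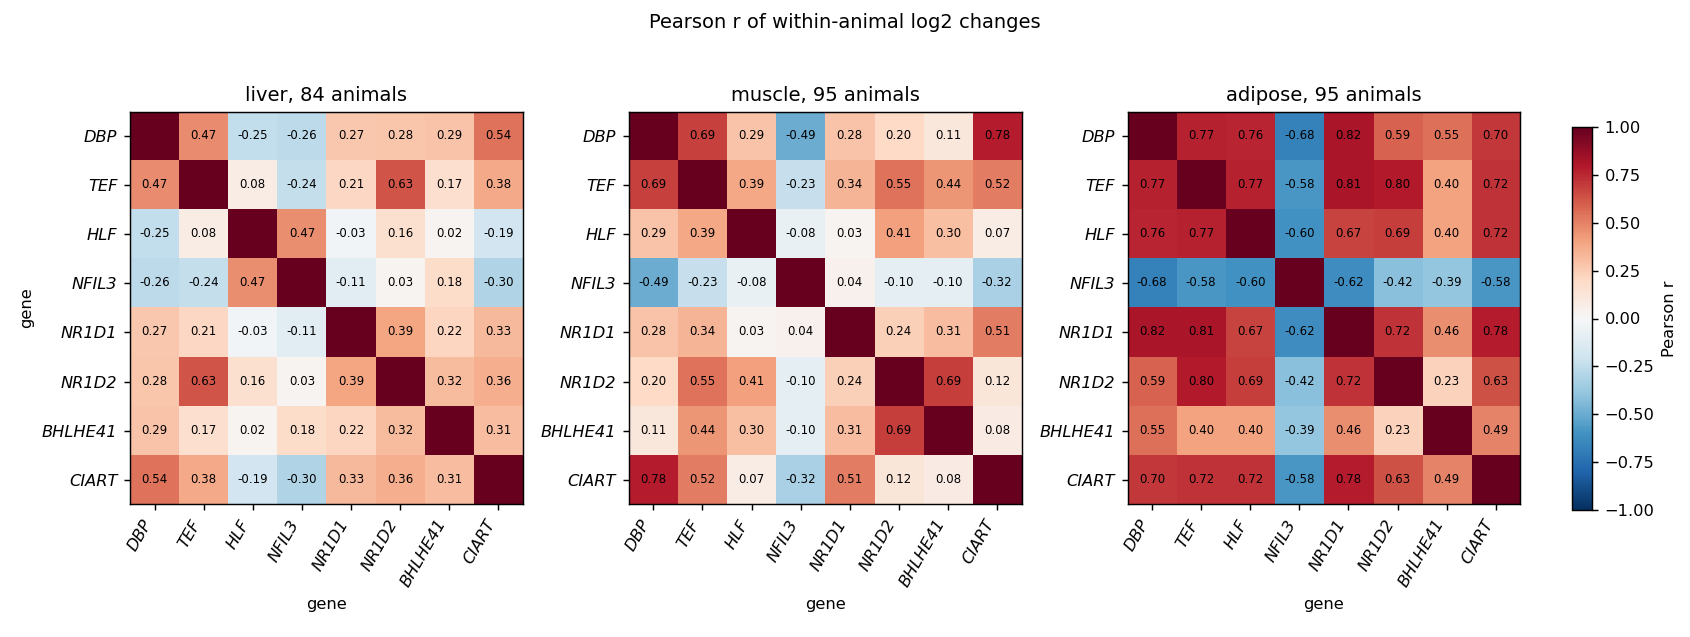
Pearson r across animals between the within-animal log2 changes of each pair of genes in liver, muscle and adipose tissue; both axes list the genes, and colour and number give r. In adipose tissue every pair with NFIL3 is negative and all others are positive, whereas in liver HLF has an r of 0.47 with NFIL3.

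For 6 of the 8 genes the change in 1 tissue followed the change in another tissue of the same animal, for NFIL3 between liver and muscle only. CIART had the highest such r, 0.681 between adipose tissue and muscle over 91 animals (rho 0.654, adjusted p = 6e-05 over 24 relations). It was 0.827 within batch 1, 0.632 within batch 2 and 0.660 without the 2 animals farthest from the median. This r ranked 1 among 13190 genes tested in both tissues, whose median was 0.08. DBP ranked 4 (r = 0.571, rho 0.617) and NR1D1 ranked 10 (r = 0.511, rho 0.558) in the same comparison, each with an adjusted p of 6e-05.

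Of the 24 relations, 15 passed, all positive. An r of at least 0.3 was reached by 5 of the 8 genes between adipose tissue and muscle, 4 between liver and adipose tissue and 3 between liver and muscle, against 2.83%, 4.73% and 10.2% of all genes. TEF passed in all 3 pairs of tissues, at 0.401 between adipose tissue and muscle, 0.425 between liver and adipose tissue and 0.247 between liver and muscle. Of the 8 genes NR1D2 had the highest r between liver and muscle, 0.473, rank 51 of 12553 genes (rho 0.457, adjusted p = 6e-05; 0.430 and 0.479 within batches), and passed in the other pairs at 0.340 and 0.359. DBP reached 0.471 between liver and adipose tissue (0.522 and 0.501 within batches) and did not pass between liver and muscle (0.221, adjusted p = 0.0686).

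NR1D1 between liver and muscle rested on few animals: r was 0.344 over 80 animals, 0.793 in batch 1, 0.207 in batch 2, 0.213 without the 2 farthest animals, and 0.242 without the animal of the extreme muscle library. NFIL3 passed in 1 pair only, liver and muscle, at 0.284, which was above that of 87.6% of genes. Its r there was 0.145 within batch 2 and 0.199 without the animal of the extreme muscle library. HLF and BHLHE41 passed in none, with r between -0.109 and 0.116. For HLF this held for the change and not for the level at 0 years. With levels centred by batch, its r then was 0.349 between liver and muscle (adjusted p = 0.00295) and 0.413 between liver and adipose tissue (adjusted p = 0.00039). At 2 years the level of HLF passed between liver and muscle but not between liver and adipose tissue. The level of BHLHE41 at 0 years likewise passed between liver and muscle, with a positive r, but not between liver and adipose tissue. At 2 years the level of BHLHE41 passed in neither of these pairs.

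**Figure D4:**
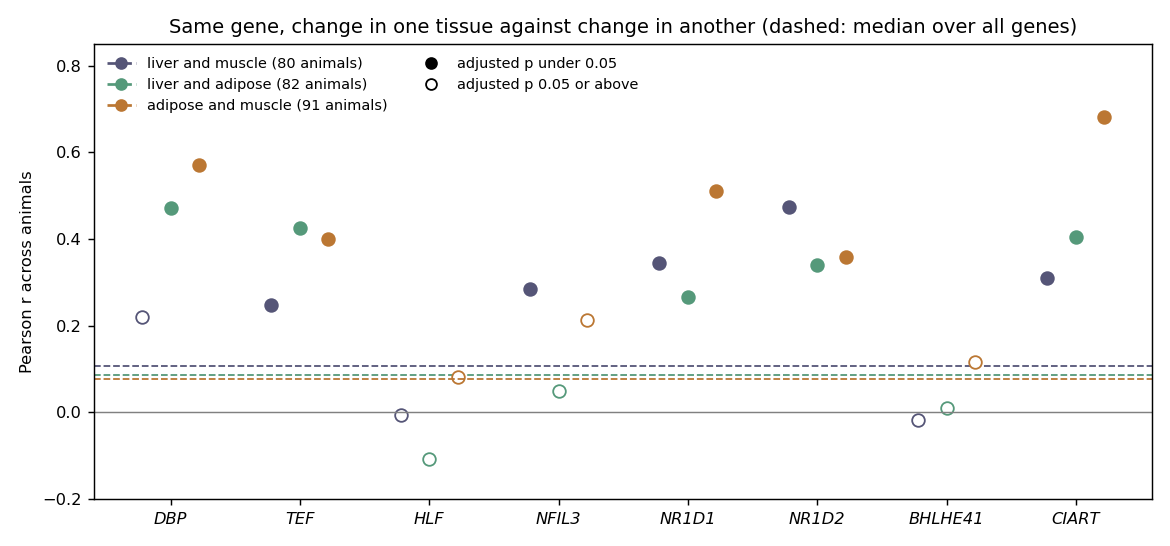
Pearson r across animals between the change of a gene in 1 tissue and its change in another, for the 3 pairs of tissues; filled points have an adjusted p under 0.05 and dashed lines mark the median r over all genes tested in both tissues (0.08 to 0.11). CIART, DBP and NR1D1 stand highest between adipose tissue and muscle, and HLF and BHLHE41 lie near the dashed lines or below.

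**Figure D5:**
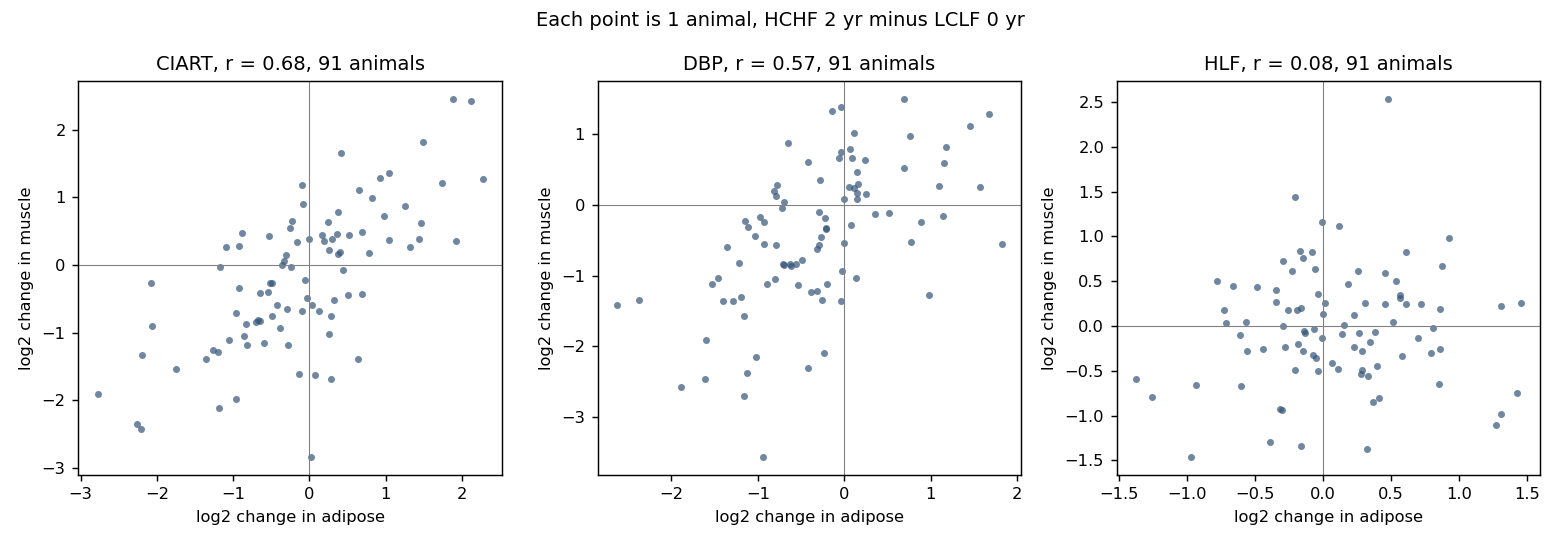
Within-animal log2 change in muscle against that in adipose tissue for CIART, DBP and HLF in 91 animals, each point 1 animal. CIART and DBP points lie along a rising diagonal (r of 0.68 and 0.57), and HLF points (r of 0.08) do not.

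Of the core clock genes, ARNTL, PER3, CLOCK and CRY1 were those whose changes tracked the 8 genes most broadly. These relations, 272 in all, were examined after the data had been seen, and 157 passed. The share of all pairs of genes that would pass this test was not computed. An r of at least 0.3 was reached by 8.31%, 11.1% and 9.23% of all pairs of genes in liver, muscle and adipose tissue. For an r of -0.3 or lower these shares were 7.38%, 10.3% and 8.56%. In adipose tissue CLOCK and CRY1 each had 1 positive and 6 negative relations that passed. These signs were not kept in muscle, where CLOCK had 4 positive and 1 negative and CRY1 3 positive and 2 negative. In liver CLOCK had 2 positive and 4 negative and CRY1 1 positive and 5 negative. In adipose tissue the change of ARNTL was negatively related to 7 of the 8 genes and positively to NFIL3 (r = 0.352, rho 0.347, adjusted p = 0.00155), with NR1D2 at -0.727 (rho -0.739, adjusted p = 3.89e-05; -0.655 and -0.754 within batches). ARNTL had the same signs in muscle for 6 genes and in liver for 5, with NFIL3 at 0.475 and 0.407. PER3, itself an E-box target, showed the opposite: in adipose tissue it was positively related to 7 genes, from 0.437 for BHLHE41 to 0.882 for TEF (rho 0.869, adjusted p = 3.89e-05; 0.918 and 0.870 within batches), and negatively to NFIL3 (-0.622, rho -0.602).

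Of the 12 core clock genes, 1 of 11 tested rose and 4 fell in liver, 2 of 11 rose and 0 fell in muscle, and 3 of 12 rose and 4 fell in adipose tissue. These counts, and those of the lists below, stand against the 50.1%, 15.6% and 39.2% of all genes that passed in liver, muscle and adipose tissue, and nothing particular to a list is read from them. PER1, PER2, PER3 and CRY2 were those that fell in liver and also those that fell in adipose tissue. ARNTL rose in adipose tissue (0.34 ± 0.082, adjusted p = 0.000613), and NR1D1 and NR1D2, its repressors, fell there. In liver NR1D2 fell too, and ARNTL did not pass (0.08 ± 0.081, adjusted p = 0.415). A link between these changes was not tested. Of 13 genes reported downstream of the PAR bZIP factors or REV-ERBs, 2 of 10 tested rose and 5 fell in liver, 1 of 7 rose in muscle, and 2 of 8 rose and 1 fell in adipose tissue. In liver SREBF1, a regulator of lipid synthesis, rose by 0.62 ± 0.126 (adjusted p = 2.47e-05), while NAMPT, an enzyme of NAD synthesis, fell by 0.34 ± 0.064 (adjusted p = 3.42e-06). This list had a median log2 change of -0.13 (liver), 0.06 (muscle) and 0.05 (adipose tissue). Of 9 genes of clock protein turnover, 7 were tested in each tissue, and 1 fell in liver, none passed in muscle, and 1 rose and 2 fell in adipose tissue.

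By likeness of change over named genes with a mean of at least 1 CPM, the 8 genes themselves left out, PER3 ranked first in adipose tissue for DBP, TEF, HLF, NR1D1, NR1D2 and CIART, with r from 0.760 to 0.882 over 95 animals and 13109 genes searched. For DBP, NR1D1 and CIART another of the 8 genes had a higher r than PER3 (0.819 for DBP and NR1D1, 0.783 for NR1D1 and CIART). THRA, a thyroid hormone receptor gene that neighbours NR1D1 in the annotation, was among the first 3 for DBP (0.613), TEF (0.639) and NR1D1 (0.666). In muscle PER2 and PER3 led for DBP (0.753 and 0.739) and CIART (0.698 and 0.660), below the 0.783 of DBP and CIART with each other, and SH3GLB1 for NR1D2 (0.807). In liver CRY2 led for HLF (0.710), PER3 for TEF (0.708) and NR1D2 (0.673), and KLF6 for NFIL3 (0.634). BHLHE41 and NFIL3 had other companions in adipose tissue, CLCN4 (0.747) and ACACA (0.722), the latter an enzyme of fatty acid synthesis, for BHLHE41 and FOSL2 (0.719) for NFIL3. These r are descriptions of the highest among many and carry no test.

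NFIL3 also moved with lists of induced genes, among them genes that respond to glucocorticoids. Among 216 relations of the 8 genes to the mean change of 9 other lists per tissue, examined after the data had been seen, 38 passed. The share of all genes with such relations was not computed, so nothing particular to the 8 genes is read from this count. NFIL3 was positively related to the score of 10 glucocorticoid-induced genes in liver (r = 0.487, rho 0.468, adjusted p = 0.000309; 0.902 and 0.400 within batches), muscle (0.587, rho 0.434; 0.890 and 0.401 within batches) and adipose tissue (0.430, rho 0.431; 0.165 and 0.508 within batches). NFIL3 was also positively related to the score of immediate early genes in liver (r 0.401, adjusted p = 0.00187, and rho 0.350, adjusted p = 0.0119) and adipose tissue (r 0.406, adjusted p = 0.00151, and rho 0.349, adjusted p = 0.0075). For hypoxia-induced genes this held in liver (r 0.376, adjusted p = 0.00432, and rho 0.340, adjusted p = 0.0149) and muscle (r 0.413, adjusted p = 0.00177, and rho 0.303, adjusted p = 0.0247). Whether r differed between these lists was not tested. These relations were not particular to NFIL3. In liver NR1D1 (0.407, adjusted p = 0.00187) and TEF (-0.303, adjusted p = 0.0325) also passed with the immediate early score. DBP was negatively related to the glucocorticoid score in muscle (-0.579, rho -0.526, adjusted p = 0.000309, with -0.712 and -0.516 within batches) and adipose tissue (-0.300, rho -0.298, adjusted p = 0.0221). HLF in liver (0.405, adjusted p = 0.00187) and, in muscle, CIART (-0.453, adjusted p = 0.00072) and TEF (-0.340, adjusted p = 0.00756) also passed with this score. Without the 2 animals with the farthest values, r with the glucocorticoid score in muscle was 0.424 for NFIL3 and -0.498 for DBP. The glucocorticoid score itself had a mean change of -0.10 ± 0.051 (liver), -0.08 ± 0.051 (muscle) and -0.11 ± 0.038 (adipose tissue).

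Some relations were with cell type scores. In muscle the endothelial score was negatively related to BHLHE41 (r = -0.568, rho -0.530, adjusted p = 0.000309; -0.405 and -0.644 within batches), NR1D2 (-0.511, rho -0.433) and TEF (-0.477, rho -0.476), and the myocyte score was positively related to DBP (0.523, rho 0.423). In liver the hepatocyte score was positively related to HLF (0.390, adjusted p = 0.00445; rho 0.252, adjusted p = 0.0938) and negatively to NR1D1 (-0.373, adjusted p = 0.00804; rho -0.194, adjusted p = 0.215) and CIART (-0.345, adjusted p = 0.00804; rho -0.403, adjusted p = 0.00373). The HLF and NR1D1 relations thus did not pass by rho. In adipose tissue the adipocyte score was positively related to CIART (0.337, rho 0.360, adjusted p = 0.00822), BHLHE41 (0.313) and TEF (0.272). The part of these cell types in the changes of the 8 genes was examined by the covariate fit and by the pairs after removal of the score changes, both given above, and in no other way.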

How the data were processed

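The authors deposited raw counts per gene for 588 libraries, and again for the 570 that passed their quality control, used here. Per the submitters' processing notes, FastQC, STAR 2.7.7a and featureCounts were used. The sources used here do not state the genome build or strand setting. Per the labels' protocols, batch 1 (16 animals) used an unstranded kit and single-end reads and batch 2 (83 animals) a stranded kit and paired-end reads, so genes that overlap or abut others (BHLHE41 with SSPN, NR1D1 next to THRA, and TEF and HLF with provisional genes, by RefSeq Panubis1.0) are uncertain. Which animals form each batch was taken from the main axis of variation between animals' averages (24.5% of variance, 1 gap of 43.4, the next 9.4). Each column was matched to its sample by name. Of 34178 genes, 33824 (99.0%) matched a RefSeq symbol.

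Levels are CPM after TMM scaling over 570 libraries. For each tissue, animals with both times were tested by edgeR 4.0.16's quasi-likelihood test (R 4.3.3) with the animal as a block, TMM, filterByExpr (minimum count 10), and 1 common dispersion from every 35th gene, adjusted by Benjamini-Hochberg at 0.05. All 8 genes passed the filter in every tissue. Differences of change between tissues were tested by limma 3.58.1 on log2 CPM (prior count 2). Correlations used Pearson's r and Spearman's rho of within-animal changes, with two-sided tests of 100000 permutations, adjusted over 84, 24, 272 or 216 relations. Where a single adjusted p follows an r and a rho, it belongs to r. Pairing comes from the animal identifiers. As a check, deviations of an animal's 2 libraries from the group means had a median correlation of 0.564 (liver), 0.508 (muscle) and 0.535 (adipose tissue), which exceeded 0.1 in 84 of 84, 93 of 95 and 94 of 95 animals. No 2 libraries were identical.

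The 8 genes are named whatever their result. Genes of the core clock, turnover and downstream lists may be named, and by likeness the 3 genes with the highest r per gene and tissue. The genes, lists and tests were chosen with earlier results of these data known. On simulated data (1500 genes, 200 changed) the edgeR test recovered 35% (liver), 45% (muscle) and 58% (adipose) of changes of 0.2 and 100% of those of 0.5, with 4.93%, 2.68% and 7.06% false among calls. Alternatives were RLE size factors, limma-voom, DESeq2 1.42.0, other filters and prior counts, no animal block, the 588 libraries, each batch alone, animals with marker sums in doubt left out, and cell type score changes as covariates. P-values across animals measure the spread between animals of this colony sample only.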

Additional observations from a re-analysis of the deposited data

Results flagged for a closer look

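The change from LCLF to HCHF differed between tissues for 5 of the 8 genes in 8 comparisons, each tested as the difference of within-animal changes on the log2 scale. By comparison this was 3 of 8 genes between liver and muscle (33.1% of all genes), 3 between liver and adipose tissue (37.7%) and 2 between adipose tissue and muscle (12.8%). The counts with liver were close to these shares, and nothing particular to the 8 genes is read from them. No difference passed in batch 1 alone. In batch 2 alone both DBP differences, NR1D1 between liver and adipose tissue, and NR1D2 between adipose tissue and muscle did not pass. NR1D1 differed by -0.579 (adipose tissue minus muscle) and 0.434 (liver minus adipose tissue). DBP differed by 0.325 (liver minus muscle) and 0.259 (liver minus adipose tissue). NR1D2 differed by -0.176 (liver minus muscle) and -0.178 (adipose tissue minus muscle). HLF differed by -0.314 (liver minus adipose tissue) and BHLHE41 by 0.438 (liver minus muscle).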

How the results depend on the processing

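Of 1393 recomputed values, 10 reversed, 114 kept their direction but lost their call, 13 gained one, and 18 counts over all genes and 21 over the 8 genes or their relations moved by more than 1.5 times. A further 36 that passed in neither setting changed sign. In the single batches and the other settings below, the number of the 8 genes that passed for diet differed by more than 1.5 times from the 4, 2 and 5 given for liver, muscle and adipose tissue. In liver it was 1 in batch 1 and 0 with cell type covariates. In muscle it was 0 with no replicate block (the animal), with DESeq2 and no replicate block, in batch 1 and with covariates, and 1 with limma-voom and no filter (limma-voom with the filter gave 2) and in batch 2. Among the settings with 0, 3, 3, 1 and 1 had an unadjusted p under 0.05. In adipose tissue it was 3 with no replicate block, by edgeR and by DESeq2, 0 in batch 1 and 1 with covariates. The block changed no call in liver.

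Of the differences between tissues, batch 1 alone gave 0 genes in each comparison (2, 2 and 1 at an unadjusted p under 0.05). Batch 2 gave 1 for liver against adipose tissue and 1 for adipose tissue against muscle, where no filter also gave 1. Batch 1 gave 4 of 8 for the baseline level of adipose tissue against muscle, 33 of 84 pairs and 7 of 24 relations between tissues.

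Reversed values were -0.222 for NR1D1 between adipose tissue and muscle at 2 years; 0.031 (batch 1) and 0.065 (level at 0 years) for r of DBP and HLF in liver; -0.001 for DBP and NR1D1 in muscle in batch 1; and, for the level at 0 years, 0.163 for TEF and NFIL3 and 0.402 for HLF and NFIL3 in muscle, 0.349 for HLF and 0.252 for BHLHE41 between liver and muscle, and 0.413 for HLF between liver and adipose tissue. At 2 years HLF had 0.375 between liver and muscle. The causes were not tested.

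Over all genes, calls for diet were 7477, 2128 and 6594 in liver, muscle and adipose tissue. They were 934, 16 and 1 in batch 1 and 27, 484 and 1079 with covariates. With no replicate block muscle had 668 and adipose tissue 3878 (DESeq2: 543 and 3852), and limma-voom with no filter gave liver 13847 and adipose tissue 10928 (with the filter 7458 and 6612). Between tissues, batch 1 called 0 genes in place of 4149, 5316 and 1693. In the baseline comparisons limma-voom with no filter called 25262, 28256 and 28346 genes (with the filter 13975, 15407 and 15149) in place of 13961, 15410 and 15167. The planned adipocyte limit for animals in doubt took 191 of 194 muscle libraries, so 5 times the muscle median was used there, chosen after seeing the data, as were the values without single animals. At liver's median of 9 counts, changes in BHLHE41 are limited by depth.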

Other observations

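Levels of several of the 8 genes at 0 years told little of the level in the same animal at 2 years. As a description with no test, r over animals between the times was 0.034 for NR1D1 in liver, above that of 1.26% of genes, whose median was 0.386. In muscle it was 0.142 for DBP, 0.201 for NR1D1 and 0.215 for CIART against a median of 0.456 over genes, and 0.571 for HLF and 0.518 for NR1D2. The SD of the within-animal log2 change of NR1D1 was 1.09 in liver, 1.06 in muscle and 0.99 for adipose tissue, larger than that of 95.0%, 92.1% and 88.0% of genes, and that of CIART larger than 93.5% in muscle (1.09). HLF in liver had an SD of 0.45, larger than 46.0% of genes.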
